A study of Rattus norvegicus with 6 samples.

Results

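The 8 clock output and loop transcription factors were followed in rat heart: Dbp, Tef, Hlf, Nfil3, Ciart, Bhlhe40, Bhlhe41 and Rora. Their probes were taken as every non-control probe whose gene name on the array, or an older or provisional name of the same gene, was that of a member. This gave 11 probes for the 8 genes, of 30367 non-control probes on the array: 3 for Dbp, 2 for Hlf and 1 for each other gene. Ciart was listed under the provisional name RGD1566380, and 1 Hlf probe under LOC690286. Whole-heart RNA of 6 samples had been hybridised in 1 colour, 3 from the AACO group and 3 from the control group. The formula AACO, from Chinese medicine and not spelled out further in the labels, was given at 0.386 µg/g each day for 8 weeks after 1 week of feeding, and controls received the same amount of double-distilled water. All animals were described as having undergone TAC, the usual short form of transverse aortic constriction, an operation that loads the left ventricle. Hearts came from animals killed 24 h after the final dosing. The labels name the rat as the species, whereas the series text speaks of mice. No strain, sex, age or clock hour of tissue collection is given in the sources used here, and a group without the operation was not analysed here.

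The circadian clock of the heart, as of other tissues, is a feedback loop of transcription. BMAL1 with CLOCK or its relative NPAS2 binds E-box elements and switches on its own repressors together with output factors, so the RNA of many of these genes rises and falls over the day. DBP, TEF and HLF are bZIP proteins of the PAR group that activate genes through D-box elements. NFIL3, also called E4BP4, is a bZIP repressor of the same elements. CIART, also known as CHRONO, and the bHLH-orange repressors BHLHE40 (DEC1) and BHLHE41 (DEC2) dampen the activity of BMAL1 with CLOCK. RORA is an orphan nuclear receptor that activates Bmal1 through ROR elements, which the REV-ERB receptors repress.

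The 3 Dbp probes are shown because they read separate stretches of 1 transcript, and the Ciart and Bhlhe41 probes because those genes had large differences. Coordinates are those of the array files, on the rat build rn4. Capitals mark the TGA stop triplet that closes the open reading frame of the middle Dbp probe, or the polyadenylation hexamer AATAAA. For probes that hold the hexamer only the 30 bases around it are given.
Dbp A_64_P049828, chr1:96178064-96178123, plus strand: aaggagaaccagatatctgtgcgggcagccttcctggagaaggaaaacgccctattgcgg
Dbp A_64_P049827, chr1:96178148-96178207, plus strand: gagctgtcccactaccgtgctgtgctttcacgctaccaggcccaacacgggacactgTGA
Dbp A_64_P017188, chr1:96178423-96178482, plus strand, part: tcaacacaatcctgAATAAAtcttgagaac
Ciart A_64_P152753, chr2:190659555-190659616, minus strand, part: gcggtgaggaaaAATAAAtcctttctgatt
Bhlhe41 A_44_P463858, chr4_random:1953325-1953384, plus strand: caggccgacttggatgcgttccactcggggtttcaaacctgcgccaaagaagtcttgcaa
The 3 Dbp probes started 0, 84 and 359 bases along a stretch of 419 bases. The reading frame that starts at the first base is open through A_64_P049828, reaches the stop triplet at the end of A_64_P049827, and A_64_P017188 lies beyond it with the hexamer near its 3′ end. The interval given for the Ciart probe spans 62 bases for a probe of 60. The tables used here hold no exon annotation on rn4, so exon and UTR labels are not given.

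Signals are given as log2 of the scanner's processed signal minus the log2 of that array's 75th percentile, so 0 is the 75th percentile of the array. Such values are compared between arrays for 1 probe, not between probes, since probes differ in how well they bind. Each array had 58717 non-control spots and none was saturated. Between 65.99% and 72.44% of spots lay well above background, with 71.8% ± 0.781 (SD, n = 3) on AACO arrays and 67.5% ± 1.37 (SD, n = 3) on control arrays (two-sided exact permutation test, p = 0.1, the smallest p that 3 against 3 allow). All AACO arrays lay on 1 slide with 1 scan date, and all control arrays on another slide with another scan date. Slide, scan date and treatment therefore cannot be told apart. The clock hour of tissue collection is not given for either group. For genes whose RNA rises and falls over the day, hour and treatment cannot be told apart either. All 6 cardiomyocyte markers were well above background on every array. In bulk tissue, fewer cells of a type and less RNA per cell cannot be told apart.

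In all, 10 probes of the 8 genes could be tested, and 6 of them, from 4 genes, were higher in the AACO group: all 3 of Dbp, and those of Tef, Ciart and Bhlhe41. None was lower. Of all 20112 probes tested, 6.34% were called higher and 4.77% lower, or 11.1% in either direction, at a Benjamini-Hochberg adjusted p under 0.05 (limma). In 7 of the members' probes the lowest AACO array lay above the highest control array, as it did in 21.7% of all probes tested; none had the opposite separation, found in 15.4% of all probes, and either separation was found in 37.1%. The median log2 fold change was 0.61 over the brightest tested probe of each gene, against 0.04 over all probes tested. Members Hlf and Bhlhe41 were measured dimly on part of the arrays: 1 Hlf probe was not tested, and Bhlhe41 was well above background on 1 control array. The other 9 probes were well above background on all 6 arrays.

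**Figure D1:**
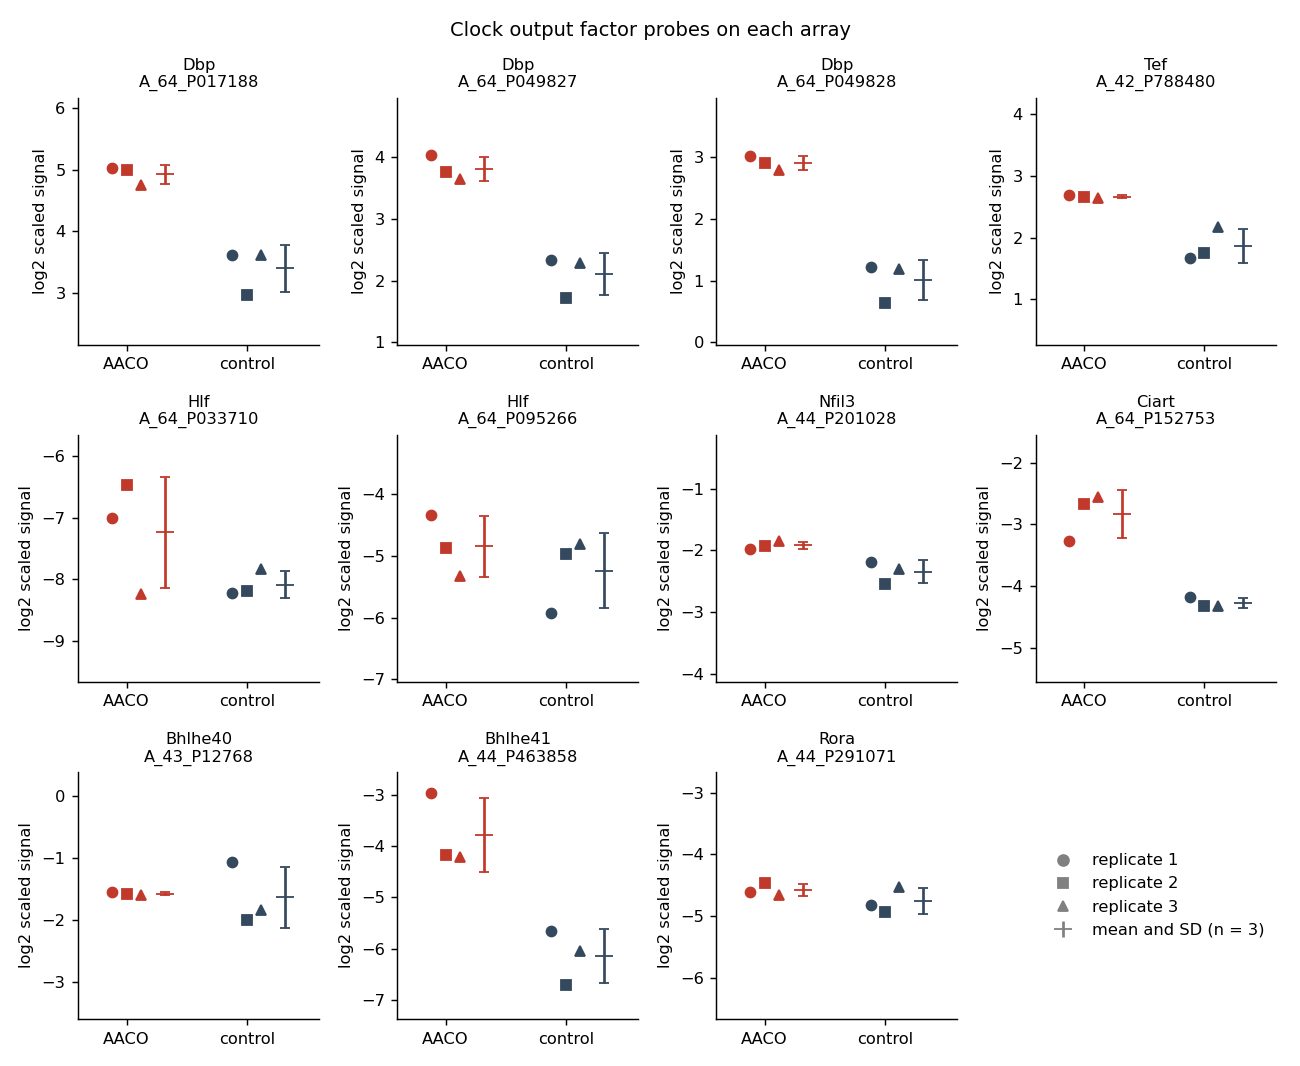
Log2 scaled signal (vertical axis, 0 is the array's 75th percentile) of each of the 11 probes on the 3 AACO and 3 control arrays, with 1 symbol per replicate and the mean and SD beside them; axes differ between panels. The groups are apart for the 3 Dbp probes and for Tef, Nfil3, Ciart and Bhlhe41, and overlap for both Hlf probes, Bhlhe40 and Rora.

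Among the PAR bZIP activators, Dbp, a factor known for one of the deepest daily rhythms of any transcript, was higher in the AACO group at every probe. On the scanner's own scale the brightest probe, A_64_P017188, read 55174, 68094 and 57592 on AACO arrays 1, 2 and 3, and 21547, 9362 and 16506 on control arrays 1, 2 and 3. After scaling, the same probe read 5.03, 5.0 and 4.75 in AACO and 3.62, 2.96 and 3.62 in control. The AACO arrays lay close together, all 3 above every control array, and control array 2 was the lowest. The difference was 2.88-fold (log2 1.53 ± 0.20 SE, 95% interval 1.03 to 2.02, adjusted p = 0.0123). The log2 difference was 1.47 when AACO array 1 was left out and 1.49 when AACO array 2 was left out, and the call ended in both fits (adjusted p = 0.0542 and 0.0619).

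The probe over the stop triplet, A_64_P049827, read 4.03, 3.75 and 3.65 in AACO and 2.33, 1.72 and 2.28 in control. It differed 3.25-fold (log2 1.70 ± 0.20 SE, 95% interval 1.23 to 2.18, adjusted p = 0.00937). The probe farthest from the 3′ end, A_64_P049828, read 3.03, 2.90 and 2.79 in AACO and 1.21, 0.64 and 1.19 in control. It differed 3.70-fold (log2 1.89 ± 0.18 SE, 95% interval 1.46 to 2.32, adjusted p = 0.00704). Control array 2 was the lowest at each of the 3 probes, AACO array 3 was the lowest of its group at each, and the 3 intervals overlapped. Both of these calls held in each fit that left out 1 array.

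Tef, the thyrotroph embryonic factor, was measured by 10 spots on each array. Its probe A_42_P788480 (chr7:120179652-120179711) read 2.69, 2.66 and 2.64 in AACO and 1.66, 1.75 and 2.17 in control. The AACO arrays were within a narrow range above all controls, of which control array 3 came nearest, 0.47 below the lowest AACO array. Tef was 1.74-fold higher (log2 0.80 ± 0.15 SE, 95% interval 0.44 to 1.16, adjusted p = 0.0268). Between spots of 1 array the SD ran from 0.039 to 0.160 on the log2 scale, against an SD of 0.27 between the control arrays. The difference stayed between 0.70 and 0.80 in the fits where the call ended, which left out AACO array 1 (adjusted p = 0.0940), AACO array 2 (0.0956), control array 1 (0.0526) or control array 2 (0.0644).

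Hlf, the hepatic leukemia factor, gave no call. Probe A_64_P095266 (chr10:78756446-78756505) read -4.33, -4.87 and -5.32 in AACO and -5.93, -4.97 and -4.80 in control, and the groups overlapped. The log2 difference was 0.39 ± 0.37 SE with a 95% interval from -0.49 to 1.28 (adjusted p = 0.505), so the interval includes the difference seen for Tef as well as 0. Probe A_64_P033710 (chr10:78755128-78755187) was well above background on AACO array 2 alone and was not tested. It read -7.01, -6.47 and -8.23 in AACO and -8.22, -8.19 and -7.84 in control, and no fold is given.

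Nfil3, the repressor that competes with the PAR factors at D-boxes, lay slightly higher in AACO without passing the test. Probe A_44_P201028 (chr17:18107192-18107251) read -1.98, -1.92 and -1.86 in AACO and -2.19, -2.54 and -2.30 in control. All AACO arrays lay above all controls, by 0.21 at the nearest. The difference was 1.34-fold (log2 0.42 ± 0.12 SE, 95% interval 0.13 to 0.71, unadjusted p = 0.0111, adjusted p = 0.0709). The 95% interval of each Dbp probe lay above that of Nfil3, while that of Tef overlapped it; the difference between the genes was not tested.

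**Figure D2:**
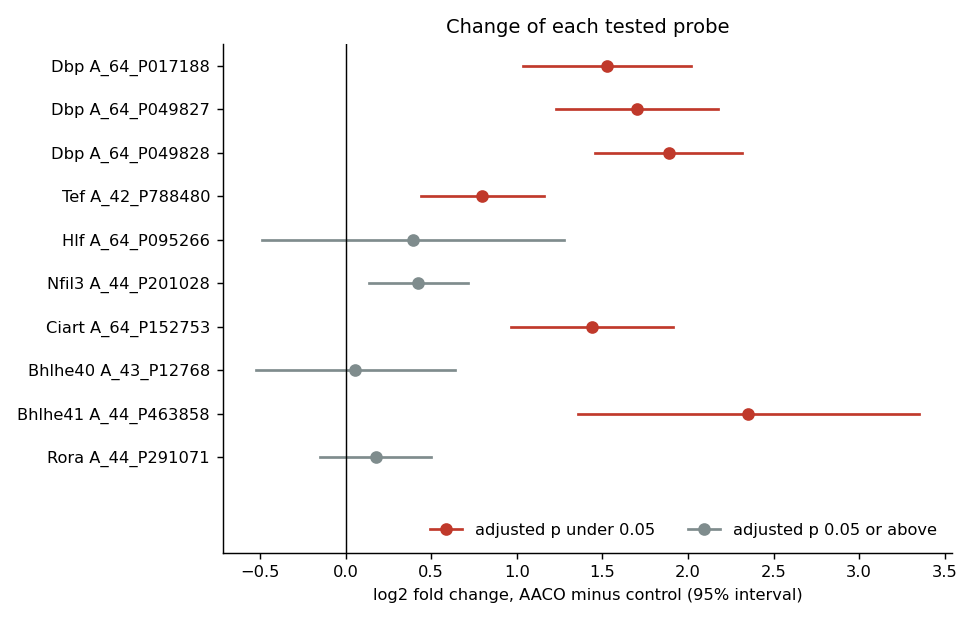
Log2 fold change, AACO minus control (horizontal axis), of each of the 10 tested probes with its 95% interval from limma; red marks an adjusted p under 0.05. The 3 Dbp probes, Tef, Ciart and Bhlhe41 pass, with differences from 0.80 to 2.35, while Hlf, Nfil3, Bhlhe40 and Rora lie between 0.06 and 0.42.

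Of the 3 E-box repressors, Ciart and Bhlhe41 were higher in the AACO group and Bhlhe40 gave no call. Ciart, at A_64_P152753, read -3.27, -2.67 and -2.55 in AACO and -4.18, -4.32 and -4.32 in control. The controls lay close together, and AACO array 1 was the lowest of its group, still 0.91 above the highest control. The difference was 2.71-fold (log2 1.44 ± 0.20 SE, 95% interval 0.97 to 1.91, adjusted p = 0.0127). It was 1.36 on the log2 scale without AACO replicate 2, where the adjusted p was 0.0628. With normexp background correction, which adds an offset and shrinks differences of dim probes, it was 0.79 and still called.

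Bhlhe41 was higher in the AACO group from a dim signal. Its scanner signals at A_44_P463858 were 219, 118 and 115 (AACO 1, 2 and 3) and 34.7, 11.5 and 20.4 (control 1, 2 and 3). It was well above background on all 3 AACO arrays but, among the controls, only on array 1. It thus passed the filter on dim probes through the group where it was high, and its fold is set against signals not well above background on the other control arrays. Scaled, it read -2.96, -4.19 and -4.23 in AACO and -5.66, -6.71 and -6.06 in control, with AACO array 1 the highest and no overlap. The difference was 5.11-fold (log2 2.35 ± 0.41 SE, 95% interval 1.36 to 3.35, adjusted p = 0.0227). With normexp the log2 difference was 0.68 (adjusted p = 0.0904), below the normexp values of 1.66 to 1.88 for the Dbp probes, 0.82 for Tef and 0.79 for Ciart, so its size gives no order among the members. With the filter at well above background on all arrays it was not tested, and 5 member probes were called. The call also ended without AACO replicate 1 (log2 1.94, adjusted p = 0.0531), AACO replicate 2 (log2 2.55, adjusted p = 0.0725) or control replicate 3 (log2 2.40, adjusted p = 0.0649).

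Bhlhe40, the paralogue of Bhlhe41, read -1.55, -1.58 and -1.61 in AACO and -1.07, -2.0 and -1.84 in control at A_43_P12768 (chr4:144145007-144145066). The controls surrounded the AACO arrays, with control array 1 the highest of all 6. The log2 difference was 0.06 ± 0.24 SE (95% interval -0.52 to 0.64, adjusted p = 0.895). The intervals of Bhlhe40 and Bhlhe41 did not overlap, but among the controls Bhlhe41 was well above background only on array 1. The intervals therefore set no order between the 2 genes, and the difference between them was not tested.

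Rora, the receptor that drives Bmal1, read -4.61, -4.47 and -4.66 in AACO and -4.81, -4.93 and -4.52 in control at A_44_P291071 (chr8:73817595-73817654). The groups overlapped through control array 3. The log2 difference was 0.18 ± 0.14 SE (95% interval -0.15 to 0.50, adjusted p = 0.420).

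The other parts of the clock were read from fixed gene lists, by the brightest probe of each gene. Among the 3 core activators, 2 were lower in the AACO group. Bmal1, at A_44_P214873, read -3.84, -3.80 and -3.55 in AACO and -0.84, -0.95 and -1.65 in control. The groups were far apart, with a log2 difference of -2.58 ± 0.23 SE (adjusted p = 0.00615), and the second Bmal1 probe, A_64_P117345, had -2.35 ± 0.21 SE (adjusted p = 0.00669). Npas2, the partner of Bmal1 that stands in for Clock, fell by 0.91 ± 0.13 SE on the log2 scale at A_64_P024222 (adjusted p = 0.0132), a call that ended without scaling and with spike-in scaling. Its other probe, A_44_P945456, had -0.59 (adjusted p = 0.189). Clock had -0.03 (adjusted p = 0.914).

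**Figure D3:**
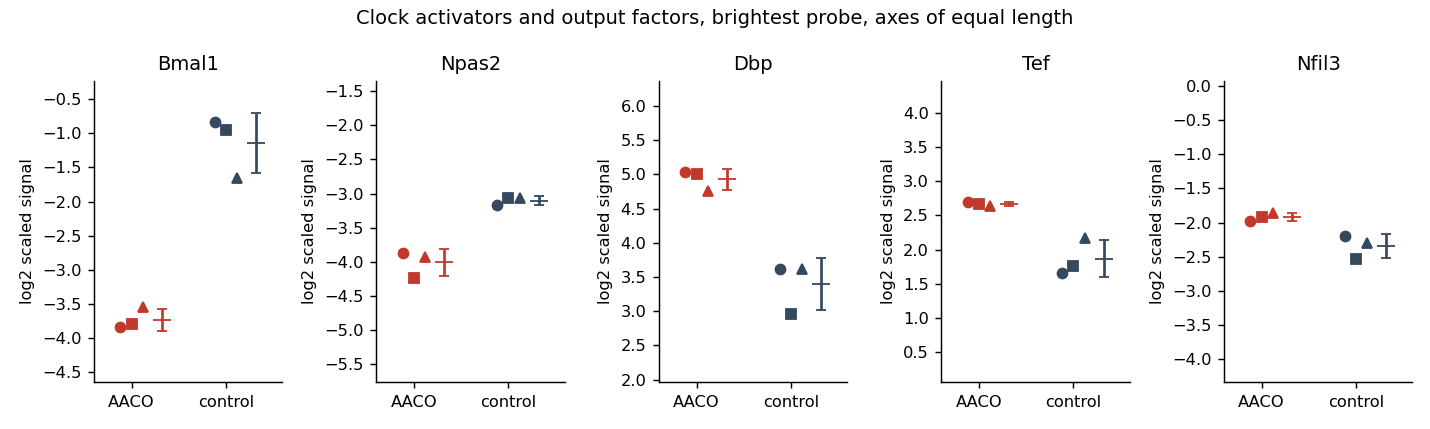
Log2 scaled signal (vertical axis, panels of equal length) of the brightest probe of Bmal1, Npas2, Dbp, Tef and Nfil3 on the 3 AACO and 3 control arrays; circle, square and triangle are replicates 1, 2 and 3, and the bar is the mean with SD. Bmal1 and Npas2 are lower and Dbp and Tef higher on every AACO array than on any control array, and Nfil3 is higher without passing the adjusted test.

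None of the 7 core repressors was called at its brightest probe, with log2 differences from -0.36 to 0.50. Those with the smallest p were Cry2 at -0.36 (adjusted p = 0.0582), Cry1 at 0.41 (adjusted p = 0.0683) and Nr1d2, which encodes REV-ERB beta, at 0.50 (adjusted p = 0.156). Nr1d1, which encodes REV-ERB alpha and is named here after its value was seen, had 0.05 (adjusted p = 0.903). The probes of Per3 disagreed: the brightest, A_64_P119407, had 0.03 (adjusted p = 0.896), while A_64_P119405 and A_64_P127337 were higher by 0.94 (adjusted p = 0.0291) and 1.15 (adjusted p = 0.0180). With normexp these fell to 0.21 (adjusted p = 0.379) and 0.19 (adjusted p = 0.381). Both calls also ended without AACO array 1 (adjusted p = 0.103 and 0.0725) or AACO array 2 (0.102 and 0.0792), and that of A_64_P119405 without any 1 control array (0.0544 to 0.0660). Rorb, a receptor related to Rora, was well above background on 1 array and was not tested. None of the 6 measured clock kinases and ubiquitin ligase parts was called.

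Among 12 clock-driven genes outside the loop, 2 were higher: Alas1, the first enzyme of haem synthesis, by 0.60 ± 0.10 SE (adjusted p = 0.0222), and Dgat2, a triglyceride-forming enzyme, by 0.68 ± 0.12 SE (adjusted p = 0.0248). The Alas1 call ended without AACO array 1, AACO array 2 or control array 3 (adjusted p from 0.0701 to 0.0807), and that of Dgat2 when any array but AACO array 3 was left out (0.0515 to 0.0864). Usp2, a clock-linked ubiquitin protease, had 0.34 (adjusted p = 0.0804), and Wee1, a mitotic kinase, had 0.49 (adjusted p = 0.108). The list's median was 0.04, equal to that of all probes to 2 decimals. Of 5 bHLH-orange relatives of the DEC genes, Hey2, a Notch target, was higher by 1.23 ± 0.19 SE (adjusted p = 0.0175) and the other 4 gave no call. The Hey2 call ended without AACO array 1, AACO array 2 or control array 3 (adjusted p from 0.0552 to 0.0607). The dimmer Hey2 probe, A_44_P778356, was also called higher, by 1.31 (adjusted p = 0.0210). With normexp that probe had 0.31 (adjusted p = 0.243). Of 3 tested bZIP relatives of the PAR factors, Cebpb and Cebpd, stress-responsive activators, were lower by log2 values of -1.0 ± 0.20 SE (adjusted p = 0.0295) and -1.41 ± 0.26 SE (adjusted p = 0.0263). The Cebpb call ended without scaling (-0.52, adjusted p = 0.138) and with spike-in scaling (-0.44, adjusted p = 0.173). It also ended without AACO array 1, AACO array 2, control array 2 or control array 3 (adjusted p from 0.0542 to 0.0846), and that of Cebpd without AACO array 1, AACO array 3, control array 2 or control array 3 (0.0536 to 0.0866). Cebpg had -0.39 (adjusted p = 0.0637), and Cebpa was not well above background on any array.

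The pattern of the brightest Dbp probe over the 6 arrays was compared with the brightest probe of 12819 other named genes. The highest Pearson correlations were with Palb2 (r = 0.995), Fam13a (0.994), Chaf1a (0.994), Asmtl (0.992) and Gprc5c (0.992). Correlations above 0.95 were found for 207 genes. All points share the same 6 arrays and the same separation of groups, so these values are a description.

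Summed markers of several other cell types were apart between the groups. All 7 macrophage markers were lower in AACO, with log2 differences from -2.44 to -0.63, and their summed level ran from 2.62 to 2.98 on AACO and from 3.79 to 4.23 on control arrays. The 6 cardiomyocyte markers gave no call, with summed levels from 9.69 to 9.91 on AACO and from 9.56 to 10.1 on control arrays. The groups' summed levels were also apart for neutrophil markers (-1.63 to -0.21 on AACO, 0.11 to 0.69 on control arrays, with Retnlg called lower), for endothelial markers (3.89 to 3.97 against 4.12 to 4.34) and for smooth muscle markers (2.32 to 2.89 against 1.68 to 2.18). No endothelial or smooth muscle marker was called at its brightest probe, though the dimmer Myh11 probe was called higher (adjusted p = 0.0412). Single probes with the groups apart made up 37.1% of all probes tested. The groups were also apart for the summed adipocyte markers (2.47 to 3.03 against 3.36 to 3.53), a sum carried by Fabp4, which was called lower (adjusted p = 0.0487). Adipoq went the other way at 1.18 without a call (adjusted p = 0.549), and Plin1 was well above background on no array. Of single tested markers, Myh4 of skeletal muscle was called higher (adjusted p = 0.0194) and Ttr of liver was not called (adjusted p = 0.127). Myh4 was dim, at -5.67 to -6.12 on AACO and -6.73 to -7.05 on control arrays, and well above background on 3 of the 6 arrays. The skeletal muscle markers Myh1 and Myh2 were too dim to be tested. Summed levels of fibroblast, atrial and lymphocyte markers overlapped. The lymphocyte markers Cd3e and Cd79a were well above background on no array. Of the 4 atrial markers none was called, and they did not move together. Myl4 read 6.63 to 6.95 over all arrays (log2 difference 0.0023), and Nppa had -1.01, with AACO array 1 the lowest of all at 2.81. The other pair, Myl7 and Sln, was chosen with earlier results of these data known and was high on AACO arrays 1 and 2, whose mean level of the pair was 3.11 and 5.08, against -0.73 on AACO array 3 and -2.01, -1.66 and -1.05 on control arrays 1, 2 and 3. Both genes of the pair were nevertheless higher on every AACO array than on any control array. On AACO array 3 Myl7 read -1.06, against -1.51 on its highest control, and Sln -0.407 against -0.411. The level of the pair and treatment therefore cannot be told apart. On AACO array 3 the 3 Dbp probes lay 1.13, 1.32 and 1.57 above the highest control, Tef 0.47 and Bhlhe41, dim in the controls, 1.43. Ciart read -2.55 there and -4.18 on its highest control. With the mean of that pair, the atrial level, as a covariate the log2 differences of the 6 called probes were 0.72 to 2.18 and none was called (adjusted p from 0.154 to 0.339), as was none of all probes. The part of the other cell types' markers in the members' differences was not tested.

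**Figure D4:**
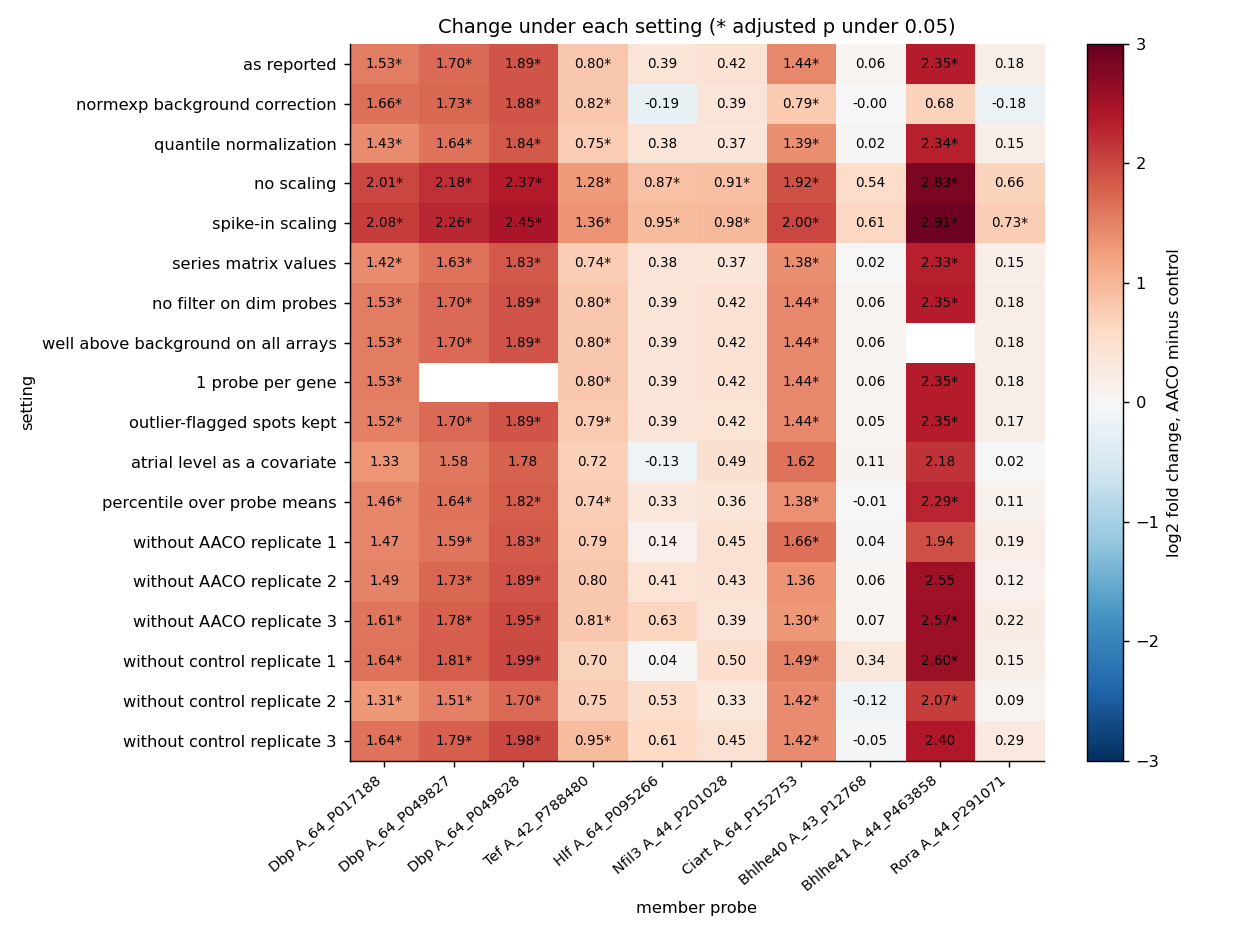
Log2 fold change, AACO minus control, of the 10 tested probes (columns) as reported and under each alternative setting (rows), coloured from blue (lower) to red (higher), with an asterisk at an adjusted p under 0.05; an empty cell had no value. Differences of the 6 called probes stay above 0 in every row, from 0.68 to 2.91, while the atrial covariate leaves no asterisk.

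Promoter windows were taken from RefSeq on the build GRCr8, from 250 bases before to 50 bases after the start, for 7 of the 8 genes. They are shown because the E-box is the element through which BMAL1 acts, and Bmal1 was lower in the AACO group. The E-box letters CACGTG, a palindrome read on both strands, occurred in 4 of the 7 windows and in 6.42% of 33469 promoters of the same length. Capitals mark it.
Tef, chr7:115206602-115206661, plus strand: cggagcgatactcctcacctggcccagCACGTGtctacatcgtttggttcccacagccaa
Ciart, chr2:186112247-186112366, minus strand: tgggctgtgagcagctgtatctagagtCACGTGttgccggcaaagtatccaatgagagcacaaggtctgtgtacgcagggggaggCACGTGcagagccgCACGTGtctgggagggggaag
Bhlhe40, chr4:143174203-143174262, plus strand: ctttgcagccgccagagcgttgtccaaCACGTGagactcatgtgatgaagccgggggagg
Bhlhe41, chr4:180569371-180569430, minus strand: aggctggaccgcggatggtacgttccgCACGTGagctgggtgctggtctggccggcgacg
Ciart held 3 matches, beginning at bases -93, -35 and -21 from the start, and the others 1 each, at -198 for Tef, -220 for Bhlhe40 and -48 for Bhlhe41. Tef, Ciart and Bhlhe41 were called higher and Bhlhe40 was not, and Dbp, called higher at all probes, had no match in its window. The D-box letters TTACGTAA, TTATGTAA, TTACATAA and TTATATAA, sought on both strands, occurred in 0 of the 7 windows and in 1.48% of all promoters, and the ROR core TAGGTCA in 0 of the 7 and in 2.63%. The windows of the 7 genes ran from 48.7% GC for Nfil3 to 74.7% for Rora, against a median of 51.7% over all promoters. They held from 9 (Nfil3) to 35 (Rora) places where G follows C, against a median of 7 over all promoters. The E-box letters contain such a place, and promoters of like content were not compared. A match is a description of letters, not a bound site.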

How the data were processed

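In all, 6 1-colour Cy3 Agilent arrays of whole-heart total RNA were analysed, 3 AACO and 3 control. The authors deposited scanner output whose processed signal intensity was background-subtracted by Agilent Feature Extraction 10.7.1.1, per the file headers and the submitters' processing notes. The series matrix holds log2 values deposited by the authors, whose median was 6.771 on every array and whose normalization is not given in the sources used here; it served as an alternative. Control spots and spots with outlier flags were left out. Log2 processed signals were reduced by each array's 75th percentile and averaged over spots of a probe. Probes well above background on at least 3 of 6 arrays were tested with limma 3.58.1 in R 4.3.3, two-sided, with Benjamini-Hochberg adjustment over all 20112 probes and a threshold of 0.05; the procedure was checked on simulated data. Nothing shows whether all samples are separate experiments, so a p-value here reflects only how these samples vary, which may be technical, and 3 arrays a group limit the precision. Of the probes, 18384 were named by accession through a RefSeq table of GRCr8, 4840 by the array's own name, and 7143 have no gene name. The text names every member probe, the called genes of each list with up to 3 uncalled genes of smallest p, and the 5 genes most like Dbp; other probes of these genes are given after their values were seen, and some genes of the lists are not reported here. Members and lists were chosen with earlier results of these data known. Alternatives were another background correction, other scalings, filters on dim probes, 1 probe per gene, an atrial covariate and each array left out.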

Additional observations from a re-analysis of the deposited data

How the results depend on the processing

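The members' count of 6 probes called higher became 0 with the atrial level as a covariate, ran from 2 to 6 when 1 array was left out, and their count called lower was 0 throughout. The members' count called higher fell to 2 without AACO replicate 2 and to 3 without AACO replicate 1. It was 8 without scaling, 9 with spike-in scaling, 5 with normexp and 4 with 1 probe per gene. Over all probes, 1275 were called higher and 960 lower. These counts were 843 and 1699 with normexp, 6341 and 267 without scaling, 9891 and 247 with spike-in scaling, 0 and 0 with the atrial covariate, and 886 and 1578 with no filter on dim probes. Leaving out 1 array gave 126 to 1480 higher and 166 to 1038 lower. The share of calls that were higher was 57.0%, against 33.2% with normexp, 96.0% without scaling, 97.6% with spike-in scaling, 36.0% with no filter and 46.1% with the percentile over probe means, an alternative chosen after seeing the data. Without scaling the median of all probes moved to 0.52 and with spike-in scaling to 0.60; there Hlf at A_64_P095266 was called at 0.87 and 0.95 and Nfil3 at 0.91 and 0.98, and Rora with spike-in scaling at 0.73.

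Among the listed clock genes' probes, 6 were called higher and 5 lower. Those tested were 5 of activators, 9 of repressors, 9 of kinases and ligase parts, 12 of clock-driven genes, 6 of bHLH-orange and 3 of bZIP relatives. Of all probes tested, 6.34% were called higher and 4.77% lower. The counts for the listed probes were 12 and 3 without scaling, 21 and 3 with spike-in scaling, and 0 and 0 with the atrial covariate. The count called lower was 8 with probes well above background on all arrays and 8 with the percentile over probe means, and the count called higher was 3 with 1 probe per gene. Leaving out 1 array gave 0 to 6 higher and 3 to 6 lower.

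Signs turned only for probes without a call, of those tabulated. With normexp Hlf was -0.19, Bhlhe40 -0.0030, Rora -0.18 and Per3 at A_64_P119407 -0.11. With the atrial covariate Hlf was -0.13, Nr1d1 -0.16 and Clock 0.014. With the percentile over probe means Bhlhe40 was -0.0068, Nr1d1 -0.017 and Per3 -0.033, and Per3 was -0.024 with quantile normalization and -0.024 with the matrix values. Without scaling and with spike-in scaling Clock was 0.45 and 0.52, and Cry2 0.12 and 0.20. Leaving out 1 array, values ran from -0.12 to 0.34 for Bhlhe40, -0.20 to 0.095 for Clock, -0.050 to 0.12 for Per3 and -0.13 to 0.20 for Nr1d1. The causes were not tested. Bhlhe41 is limited by its signal over background, and 1 Hlf probe could not be tested for the same reason. No paired analysis was possible because the labels give the groups no shared replicate numbers.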
